A study of Mus musculus with 6 samples.

Results

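Collagens are the chains of the extracellular matrix, and their genes carry names made of Col, a type number, the letter a and a chain number. All protein-coding genes with a name of this form were taken, which gave 44 of the 35122 genes in the count table. By class, 11 encode chains of fibril-forming collagens, 6 chains of type IV, 6 chains of type VI and 21 chains of other collagens. Epididymal fat was digested with collagenase and RNA of the adipocytes that floated to the top was measured in male C57BL/6 mice on chow diet, 3 PU.1 fl/fl mice (control) and 3 PU.1 fl/fl mice that also carry AdipoqCre (aPU.1KO), 1 library per mouse. Both groups carry loxP sites around exon 5 of Spi1, the gene of the transcription factor PU.1, and Cre is driven by the adiponectin promoter, which is active in adipocytes. The age is 10-11 months by the labels and over 1 year by the study's text. The comparison asks which genes differ in the adipocyte fraction when PU.1 is deleted in adipocytes, read here for the collagen chains and between their classes.

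Every collagen molecule is built of chains that wind around each other, and the wound part of each chain repeats glycine followed by any 2 residues. Fibrillar collagens (types I, II, III, V, XI, XXIV and XXVII) assemble into the fibrils that give tissue its tensile strength. Type IV collagen forms the sheet-like network of basement membranes, which surround each adipocyte and each capillary. Type VI collagen forms beaded microfilaments in the matrix around cells and is a known component of adipose tissue, where it is produced by adipocytes and by stromal cells.

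The classes differ in the chains themselves, as read from the GENCODE M21 transcripts translated here, counting runs of at least 5 uninterrupted glycine-led triplets. The 11 fibrillar chains each had 2 to 3 such runs, the longest of 216 to 344 triplets (median 338). Type IV chains had 22 to 27 runs, none longer than 66 triplets, although their total of 425 to 444 triplets was larger. In the type VI chains the runs covered only 10.0 to 31.9% of the residues, since most of the protein lies in globular parts. Col3a1, the chain of type III collagen, held a run of 344 triplets, Col4a1 held 22 runs of up to 40, and Col6a3 is a protein of 3284 residues with 110 triplets in all.

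The regions upstream of the starts of 4 chains are shown because these abundant chains contrast below: for Col3a1 and Col6a3 the groups did not overlap and aPU.1KO mice were lower, and for Col5a3 and Col15a1 the groups overlapped. The sequences are the 250 bases before the RefSeq start (GRCm38.p6, 5′ to 3′ on the strand of the gene), and capitals mark matches to 4 motifs. These were GAGGAA, the core of PU.1 sites, which reads TTCCTC on the opposite strand, the CCAAT box, which reads ATTGG there, the TATA box searched as TATAAA, which reads TTTATA there, and the core of Sp1 sites searched as GGGCGG, which reads CCGCCC there. Both strands were searched and matches could overlap.
Col3a1, chr1:45311288-45311537, plus strand: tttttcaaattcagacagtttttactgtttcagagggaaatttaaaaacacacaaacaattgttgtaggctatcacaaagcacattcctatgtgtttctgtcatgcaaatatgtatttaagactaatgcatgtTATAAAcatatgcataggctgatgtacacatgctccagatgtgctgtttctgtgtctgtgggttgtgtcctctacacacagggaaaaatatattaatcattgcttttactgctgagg
Col6a3, chr1:90843972-90844221, minus strand: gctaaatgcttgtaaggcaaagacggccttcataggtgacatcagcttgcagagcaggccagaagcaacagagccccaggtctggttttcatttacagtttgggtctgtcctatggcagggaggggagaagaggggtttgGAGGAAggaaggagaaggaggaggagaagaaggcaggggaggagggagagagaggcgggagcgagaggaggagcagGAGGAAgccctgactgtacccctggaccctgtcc
Col5a3, chr9:20815068-20815317, minus strand: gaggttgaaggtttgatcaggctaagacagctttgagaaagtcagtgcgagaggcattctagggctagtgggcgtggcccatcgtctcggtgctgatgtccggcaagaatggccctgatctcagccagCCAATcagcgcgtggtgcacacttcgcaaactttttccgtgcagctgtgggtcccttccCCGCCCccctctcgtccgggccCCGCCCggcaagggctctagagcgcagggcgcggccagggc
Col15a1, chr4:47207762-47208011, plus strand: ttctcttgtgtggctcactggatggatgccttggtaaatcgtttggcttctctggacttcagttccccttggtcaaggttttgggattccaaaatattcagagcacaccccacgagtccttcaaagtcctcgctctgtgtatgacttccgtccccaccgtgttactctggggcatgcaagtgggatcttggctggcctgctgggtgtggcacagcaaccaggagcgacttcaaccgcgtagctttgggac

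In these windows Col6a3 held 2 matches to GAGGAA, Col3a1 a single TATAAA, Col5a3 a CCAAT and 2 GGGCGG, and Col15a1 none of the 4 motifs. Over the 38 windows of the 35 collagen genes found in the RefSeq table, GAGGAA stood in 26.3%, beside 23.3% of all 32851 windows. CCAAT stood in 34.2% of the collagen windows and 33.9% of all, and TATAAA in 13.2% and 12.4%. GGGCGG stood in 57.9% of the collagen windows and 32.7% of all. These are matches of letters, not measured sites.

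The paralogous genes of the main basement membrane chains, Col4a1 and Col4a2, are transcribed away from each other on chromosome 8, and their RefSeq transcripts start within each other. Col4a2 starts at 11312805 on the plus strand and Col4a1 at 11312826 on the minus strand, so that the following 22 bases, written on the plus strand, belong to both first exons.
Col4a1 and Col4a2, shared start: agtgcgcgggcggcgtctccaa

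Counts per library were between 20550252 and 69283842, and levels are given as CPM, counts scaled to a common library size with TMM factors. Spi1 had 24.3, 6.35 and 26.7 CPM in control mice 1, 2 and 3 and 3.20, 1.22 and 4.17 CPM in aPU.1KO mice 1, 2 and 3. The aPU.1KO mice were all lower than the control mice, in the direction of the genotype labels, with a log2 fold change of -2.75 (SE 0.64, edgeR adjusted p = 0.0788, DESeq2 adjusted p = 7.7e-05). Reads of the Spi1 exons outside exon 5 are counted too. Macrophages also express PU.1, and the paper names them as cells that might contaminate this fraction. Their marker list, given below, was lower in aPU.1KO mice as well. The part of macrophages and of adipocytes in the Spi1 difference was not tested. The median log2 fold change of all 13925 genes tested was 0.01.

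The labelled cell type was present: the adipocyte list of 10 genes summed to between 29283 and 32137 CPM in control and between 35374 and 41439 CPM in aPU.1KO mice. Of these 10 genes, 9 had log2 fold changes above 0 and 1, Lep, below, with a median of 0.32. At an unadjusted edgeR p under 0.05, 7 were higher (11.9% of all genes) and 1 lower (13.7%), and DESeq2 called 6 higher (3.51%). The defining genes Adipoq and Plin1 were higher in all aPU.1KO mice. Lep, the leptin gene, was at 4674, 4551 and 5029 CPM in control and 2855, 1565 and 3949 CPM in aPU.1KO mice. Genes of other cells were also detected. Of all the marker genes tested, the macrophage gene Mrc1 and the pericyte gene Pdgfrb were the only ones past an edgeR adjusted p of 0.05, both lower in aPU.1KO mice. The fibroblast and adipose progenitor list was at 1146, 729 and 1393 CPM in control and 432, 663 and 561 CPM in aPU.1KO mice, and all 12 of its genes had log2 fold changes below 0 (8 at an unadjusted edgeR p under 0.05, where 13.7% of all genes were lower, median -0.95). The macrophage list was at 1536, 455 and 1481 CPM in control and 317, 232 and 296 CPM in aPU.1KO mice (11 of 12 genes below 0 and at that p, median -1.97). Control mouse 2 thus stood apart from the other control mice in its macrophage genes, as in Spi1, and was the lowest control in its fibroblast genes.

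The pericyte and smooth muscle list was at 598 to 866 CPM in control and 466 to 603 CPM in aPU.1KO mice (all 10 genes below 0, 6 at that p, median -0.69). The endothelial list overlapped between the groups, at 635 to 929 CPM and 376 to 839 CPM, with 10 of 10 genes below 0, 1 at that p, and a median of -0.44. Mesothelial genes summed to 5.08 to 18.5 CPM in control and 6.76 to 9.09 CPM in aPU.1KO mice (6 of 8 tested, none at that p, median -0.45), and of the Schwann cell list the defining gene Sox10 was at or near 0 (3 of 5 tested, none at that p, median 0.14). The part of these cells in the collagen values was not tested, and in these bulk libraries fewer cells of a type and less RNA per cell cannot be told apart.

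Of the 44 collagen chain genes, 30 had counts enough to be tested and 14 did not. Of the 30, 27 had a log2 fold change below 0 and 3 above, with a median of -0.72 and a range from -1.61 to 0.75. In 18 of the 30 all 3 aPU.1KO mice were lower than all 3 control mice (15.5% of all genes tested), and in 0 all were higher (16.7% of all genes). edgeR's quasi-likelihood test gave an unadjusted p under 0.05 with lower levels for 13 of the 30 (13.7% of all genes) and with higher levels for 0 (11.9% of all genes).

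At an adjusted p under 0.05 edgeR called 0 collagen chain genes (0.18% of all genes were called lower), and limma-voom also called 0 (0.244%). DESeq2, which the study's methods name, called 10 lower of the 39 chains for which it gave an adjusted p (7.48% of all genes) and 0 higher (3.51%). The edgeR adjusted p of 9 chains lay between 0.0722 and 0.0955, just outside the threshold, in a range where many genes lay (6.15% of all genes were lower at an adjusted p under 0.1): Col3a1, Col5a2, Col4a1, Col4a2, Col4a4, Col6a3, Col6a5, Col28a1 and Col14a1. DESeq2 called these 9 and Col6a6. Without control mouse 2, edgeR called 4 chains lower, Col3a1, Col5a2, Col4a4 and Col6a5 (6.93% of all genes were then called lower). Without aPU.1KO mouse 2 it called 0 (0.0211% of all genes), with 17 lower at an unadjusted p under 0.05 (14.9% of all genes).

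**Figure D1:**
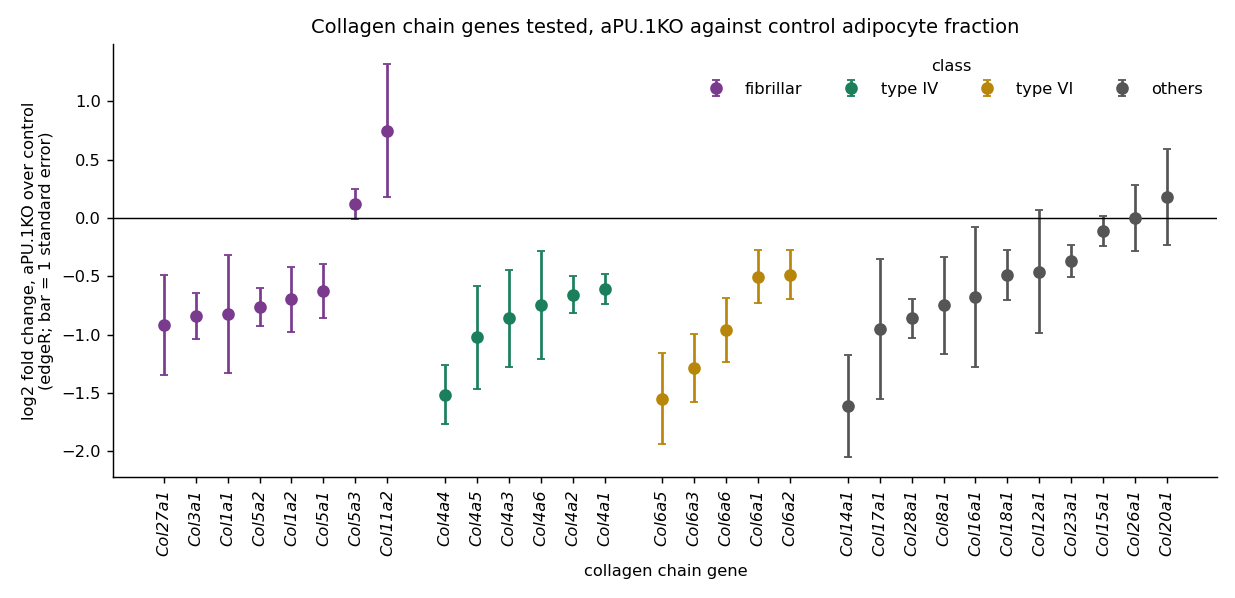
Log2 fold change (aPU.1KO over control, y axis, edgeR) of the 30 collagen chain genes tested, grouped by class along the x axis, with bars of 1 standard error. The 6 type IV and 5 type VI chains all lie below 0, and Col5a3, Col11a2 and Col20a1 are the 3 points above it.

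Levels of different genes were compared per kilobase of mRNA, as CPM per kilobase. The 44 chains together summed to 1683, 1652 and 1609 in control mice and to 1233, 915 and 1337 in aPU.1KO mice, that is 1648 ± 37.0 and 1162 ± 220 (SD, n = 3 each). They held 1.00 ± 0.037% of all counts in control and 0.643 ± 0.149% in aPU.1KO mice. Every aPU.1KO mouse was below every control mouse, and the aPU.1KO mice spread more widely, with mouse 2 the lowest. The basement membrane chains Col4a1 and Col4a2 came first in control mice, at 309 and 237 CPM per kilobase, followed by Col15a1 at 178, Col6a2 at 161, Col6a1 at 144 and Col5a3 at 120. The best-known fibrillar chains stood lower, with Col3a1 at 105, Col1a2 at 94.2 and Col1a1 at 86.0. Col4a1 alone was 18.7% of the collagen level of control mice.

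**Figure D2:**
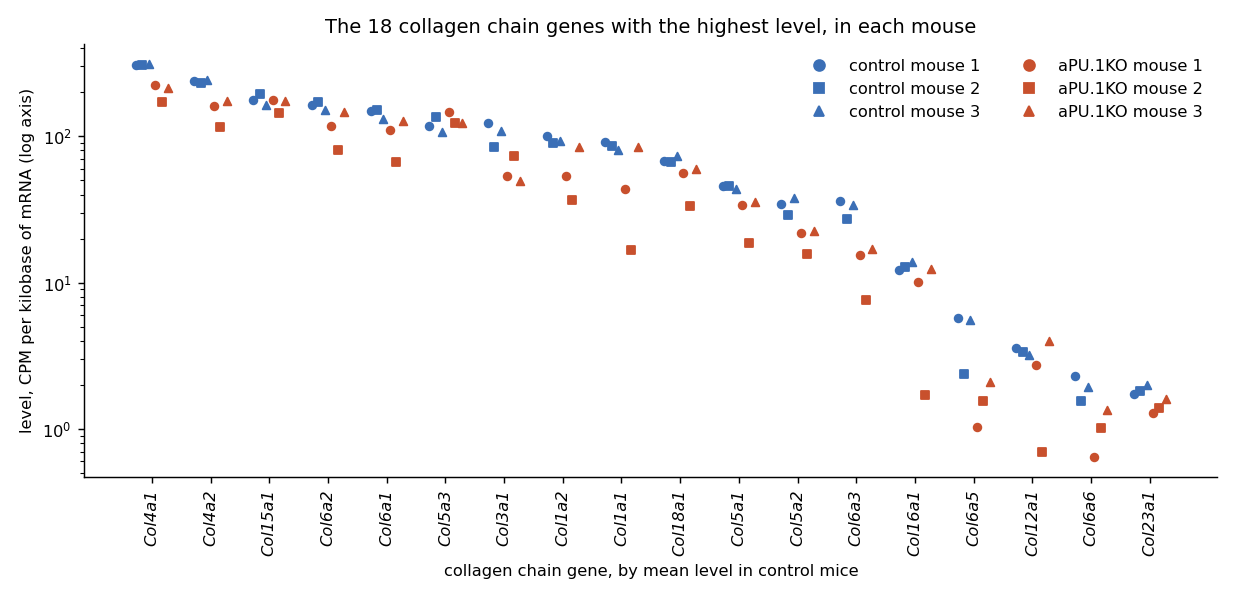
Level in CPM per kilobase of mRNA (y axis, log axis) of the 18 collagen chain genes with the highest mean in control mice (x axis), with a point for each of the 3 control (blue) and 3 aPU.1KO (red) mice. Col4a1, Col4a2, Col6a3 and Col3a1 show no overlap between the colours, Col5a3 and Col15a1 do, and aPU.1KO mouse 2 (red square) falls far below the rest for Col1a1, Col16a1 and Col12a1.

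By class, the summed level of the type IV chains was 548 ± 8.06 CPM per kilobase in control and 354 ± 55.7 in aPU.1KO mice (SD, n = 3). The fibrillar chains were at 485 ± 24.3 and 345 ± 58.2, the type VI chains at 345 ± 18.8 and 233 ± 70.1, and the others at 271 ± 13.8 and 229 ± 39.5. The groups did not overlap for any of the 4 classes, and the differences of the last class were the smallest. As a share of the collagen level, fibrillar chains made up 29.4% in control and 29.8% in aPU.1KO mice, type IV 33.2% and 30.6%, type VI 20.9% and 19.8%, and the others 16.4% and 19.8%. The share of the others was 15.9, 17.3 and 16.1% in control and 20.3, 20.1 and 19.0% in aPU.1KO mice, so that the groups did not overlap. A single chain accounted for this, since Col15a1 was 10.8% of the collagen level in control and 14.4% in aPU.1KO mice, while the remaining 20 chains of the class were 5.61% and 5.43%. The share of type IV was 32.5, 32.7 and 34.6% in control and 31.2, 31.6 and 29.0% in aPU.1KO mice, also without overlap, while the shares of the fibrillar and type VI chains overlapped.

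**Figure D3:**
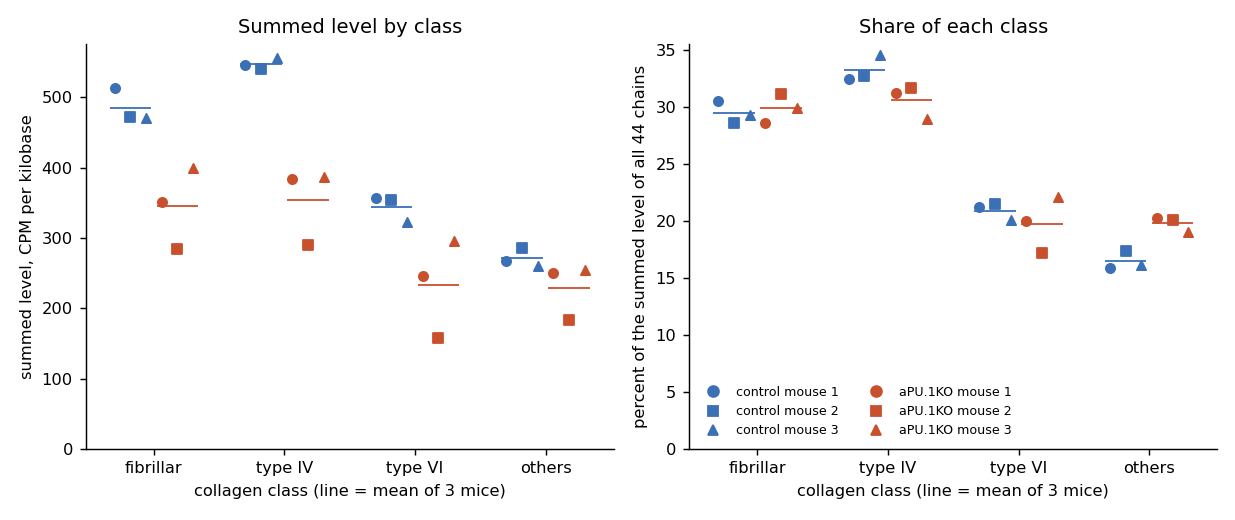
Summed level in CPM per kilobase (left, y axis) and percent of the summed level of all 44 chains (right, y axis) for the 4 collagen classes (x axis), with a point for each mouse and a line at each group's mean. All aPU.1KO sums lie below the control sums, and in the shares the others are higher (19.8% against 16.4%) while the fibrillar shares overlap.

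The fibrillar class had 8 chains tested, 6 below 0 and 2 above, with a median log2 fold change of -0.73, which was -0.44 without aPU.1KO mouse 2. The groups did not overlap for 4 of them (15.5% of all genes), 4 had an unadjusted edgeR p under 0.05 (13.7%) and 2 were called by DESeq2 (7.48%). The single chain of this class with the highest level per kilobase was Col5a3, of type V collagen, which takes part in starting fibrils and setting their width.

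Col5a3 (chr9:20770050-20815067, minus strand, GRCm38) was at 719, 830 and 657 CPM in control and 892, 751 and 750 CPM in aPU.1KO mice. Its groups overlapped, with a log2 fold change of 0.12 (SE 0.13, edgeR adjusted p = 0.604, and 0.02 to 0.20 with each mouse left out). The partner chain Col5a1 (chr2:27886425-28039514, plus strand) was at 382, 387 and 369 CPM in control and 285, 157 and 297 CPM in aPU.1KO mice. All aPU.1KO mice were below the control mice, with a log2 fold change of -0.62 (SE 0.23, edgeR adjusted p = 0.157), which was -0.39 without aPU.1KO mouse 2. Col5a2, the other type V chain, was outside the rule for named genes and was added because 2 tests placed it near or past the threshold. It was at 229, 193 and 252 CPM in control and 144, 104 and 149 CPM in aPU.1KO mice (log2 fold change -0.76, SE 0.16, edgeR adjusted p = 0.0783, DESeq2 adjusted p = 0.0010).

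Col3a1, the only chain of type III collagen (chr1:45311538-45349706, plus strand), was at 690, 468 and 600 CPM in control and 297, 406 and 277 CPM in aPU.1KO mice. The groups did not overlap and the log2 fold change was -0.84 (SE 0.20, edgeR adjusted p = 0.0794, DESeq2 adjusted p = 0.0010). The chains of type I collagen, the main collagen of skin, bone and tendon, followed another pattern across the mice. Col1a1 (chr11:94936224-94953042, plus strand) was at 542, 511 and 477 CPM in control and 260, 98.9 and 505 CPM in aPU.1KO mice, so that aPU.1KO mouse 3 was within the control range and mouse 2 far below it. Its log2 fold change was -0.82 with a standard error of 0.51 (edgeR adjusted p = 0.347), and it was -0.42 without aPU.1KO mouse 2 and -1.51 without aPU.1KO mouse 3. Col1a2 (chr6:4504814-4541544, plus strand) was at 534, 484 and 494 CPM in control and 285, 197 and 451 CPM in aPU.1KO mice. Here the groups did not overlap, but the order of the aPU.1KO mice was the same as for Col1a1 (log2 fold change -0.70, SE 0.28, edgeR adjusted p = 0.178, and -0.46 or -1.06 without aPU.1KO mouse 2 or 3).

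The remaining fibrillar chains were scarce. Col27a1 and Col11a2 were tested, with log2 fold changes of -0.92 and 0.75 and groups that overlapped. Col24a1, Col2a1 and Col11a1, of which the last pair are cartilage chains, had at most 8 counts in any library and were not tested.

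All 6 type IV chains were tested and all 6 had log2 fold changes below 0, with a median of -0.80, which was -1.23 without aPU.1KO mouse 2. The groups did not overlap for 5 of them (15.5% of all genes), 3 had an unadjusted edgeR p under 0.05 (13.7%) and the same number were called by DESeq2 (7.48%). Col4a1 and Col4a2 encode the chains of the type IV network found in nearly every basement membrane.

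Col4a1 (chr8:11198423-11312826, minus strand) was at 2029, 2029 and 2075 CPM in control and 1480, 1136 and 1405 CPM in aPU.1KO mice. The control mice lay within a narrow range, all aPU.1KO mice were below it, and the log2 fold change was -0.61 (SE 0.13, edgeR adjusted p = 0.0783, DESeq2 adjusted p = 0.0002). Col4a2 (chr8:11312805-11449287, plus strand) was at 1534, 1496 and 1554 CPM in control and 1035, 751 and 1123 CPM in aPU.1KO mice. Again all aPU.1KO mice were below the control range, with a log2 fold change of -0.66 (SE 0.16, edgeR adjusted p = 0.0861, DESeq2 adjusted p = 0.0026). The ratio of these chains, which have adjoining starts, overlapped between the groups. Col4a1 over Col4a2 per kilobase was 1.29, 1.32 and 1.30 in control and 1.39, 1.48 and 1.22 in aPU.1KO mice (exact permutation test over 3 against 3 mice, two-sided p = 0.6, adjusted over 6 ratios 0.7).

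The other 4 type IV chains, known from the basement membranes of kidney, lung and inner ear and from smooth muscle, were far scarcer, at 0.129 to 1.05 CPM per kilobase in control mice. Col4a5 (chrX:141475385-141689234, plus strand) was at 7.51, 5.87 and 7.14 CPM in control and 1.37, 5.56 and 3.13 CPM in aPU.1KO mice (log2 fold change -1.02, SE 0.44, edgeR adjusted p = 0.204, and -0.67 or -1.60 without aPU.1KO mouse 1 or 2). Col4a4 (chr1:82448423-82586849, minus strand) was at 2.73, 3.50 and 2.54 CPM in control and 0.966, 0.904 and 1.18 CPM in aPU.1KO mice. The aPU.1KO mice were close to each other and all well below the control mice, and the log2 fold change was -1.51 (SE 0.25, edgeR adjusted p = 0.0722, DESeq2 adjusted p = 0.0003). Col4a3, which lies head to head with Col4a4, and Col4a6, which does so with Col4a5, had log2 fold changes of -0.86 and -0.75, and the groups overlapped for Col4a6.

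Type VI collagen had 5 chains tested, all below 0, with a median log2 fold change of -0.96 and groups that did not overlap for any of the 5 (15.5% of all genes). Unadjusted edgeR p was under 0.05 for 3 (13.7% of all genes) and DESeq2 called 3 (7.48%). Col6a1 and Col6a2, short chains present in every type VI molecule, had smaller differences than their long partner chain Col6a3 or than Col6a5.

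Col6a1 (chr10:76708792-76726168, minus strand) was at 615, 621 and 539 CPM in control and 456, 275 and 523 CPM in aPU.1KO mice. Col6a2 (chr10:76595762-76623630, minus strand) was at 642, 676 and 593 CPM in control and 466, 316 and 583 CPM in aPU.1KO mice. For both, aPU.1KO mouse 3 fell just short of the lowest control mouse, and the log2 fold changes were -0.50 (SE 0.23, edgeR adjusted p = 0.223) and -0.48 (SE 0.21, edgeR adjusted p = 0.211). Without aPU.1KO mouse 2 both were -0.28. Col6a3 (chr1:90765923-90843971, minus strand), the chain from which the peptide endotrophin is cut, was at 363, 277 and 342 CPM in control and 155, 76.3 and 171 CPM in aPU.1KO mice. All aPU.1KO mice were well below all control mice, with a log2 fold change of -1.29 (SE 0.29, edgeR adjusted p = 0.0786, DESeq2 adjusted p = 0.0004).

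Col6a5 (chr9:105856078-105960643, minus strand), a chain that can take the place of Col6a3, was at 53.1, 22.2 and 51.8 CPM in control and 9.5, 14.5 and 19.6 CPM in aPU.1KO mice. Its log2 fold change was -1.55 (SE 0.39, edgeR adjusted p = 0.0878, DESeq2 adjusted p = 0.0011), and control mouse 2 was the lowest of the control mice here, as it was for the fibroblast list. Col6a6, a related chain outside the rule for named genes, had a log2 fold change of -0.96 and was called by DESeq2 (adjusted p = 0.0145) but not by edgeR (adjusted p = 0.104). Col6a4 was not tested.

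Ratios within a mouse compare chains without the scaling between libraries. Of the 6 ratios taken per kilobase, Col6a3 over Col4a1 was the only one without overlap between the groups, at 0.117, 0.0894 and 0.108 in control and 0.0686, 0.0440 and 0.0798 in aPU.1KO mice (difference -0.74 on the log2 scale). Its exact permutation p was 0.1, the smallest that 3 against 3 mice allow, and 0.6 after adjustment. Col1a1 over Col1a2 was 0.915, 0.953 and 0.871 in control and 0.822, 0.452 and 1.01 in aPU.1KO mice (exact permutation p = 0.5). In aPU.1KO mouse 2 the type I chains were thus out of the proportion seen in the other mice. Col4a1 over Col1a1, the balance of basement membrane to fibril, was 3.36, 3.56 and 3.90 in control and 5.11, 10.3 and 2.49 in aPU.1KO mice, above the control range in 2 and below it in 1 (exact permutation p = 0.6). Col6a1 over Col6a2 and Col6a3 over Col1a1 both had an exact permutation p of 0.7.

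A further 5 ratios were chosen after the values were seen and carry no test. Col6a3 over Col6a1 was 0.240, 0.181 and 0.257 in control and 0.138, 0.113 and 0.133 in aPU.1KO mice, lower in all. Col5a3 over Col5a1 was 2.59, 2.95 and 2.45 in control and 4.30, 6.58 and 3.47 in aPU.1KO mice, higher in all. Col15a1 over Col4a1 was 0.573, 0.639 and 0.522 in control and 0.794, 0.836 and 0.820 in aPU.1KO mice, also higher in all. Col5a2 over Col5a1 and Col3a1 over Col1a1 overlapped between the groups.

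**Figure D4:**
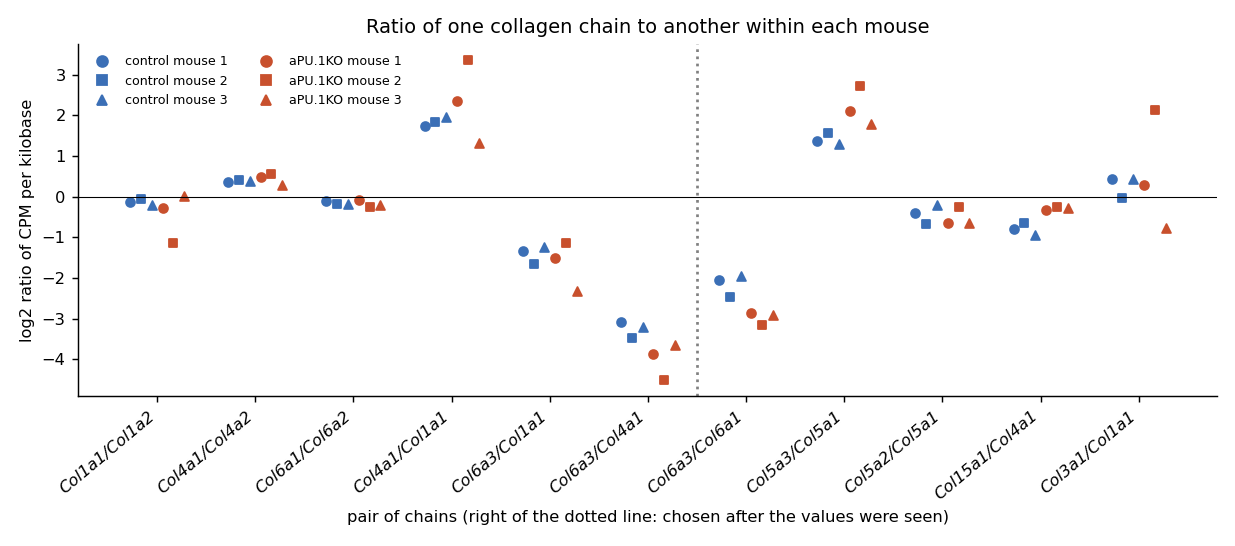
Log2 ratio of the levels per kilobase of 2 collagen chains (y axis) for each of 11 pairs (x axis), with a point for each control (blue) and aPU.1KO (red) mouse; the pairs right of the dotted line were chosen after the values were seen. Col6a3 over Col4a1 and over Col6a1 lie lower in all aPU.1KO mice, Col5a3 over Col5a1 and Col15a1 over Col4a1 higher, and Col4a1 over Col4a2 overlaps.

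The other 21 chains belong to small families, and 11 of them were tested. Of these, 10 had log2 fold changes below 0. The median of the 11 was -0.49, and it was -0.27 without aPU.1KO mouse 2 and -0.82 with limma-voom. The groups did not overlap for 4 (15.5% of all genes), 3 had an unadjusted edgeR p under 0.05 (13.7%) and 2 were called by DESeq2 (7.48%). The multiplexins Col15a1 and Col18a1 lie in or next to basement membranes and were the most abundant.

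Col15a1 (chr4:47208161-47313167, plus strand) was at 909, 1013 and 846 CPM in control and 918, 742 and 900 CPM in aPU.1KO mice. Its groups overlapped (log2 fold change -0.11, SE 0.13, edgeR adjusted p = 0.611, and -0.18 to -0.02 with each mouse left out). Col18a1 (chr10:77052178-77166548, minus strand), the source of endostatin, was at 381, 376 and 409 CPM in control and 312, 186 and 332 CPM in aPU.1KO mice. It did not overlap, with a log2 fold change of -0.49 (SE 0.21, edgeR adjusted p = 0.203), which was -0.27 without aPU.1KO mouse 2.

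Among the fibril-associated collagens (FACIT), which sit on the surface of fibrils, Col16a1 was at 63.2, 66.7 and 72.2 CPM in control and 53.0, 8.86 and 64.9 CPM in aPU.1KO mice. Col12a1 was at 41.5, 38.7 and 37.0 CPM in control and 31.3, 8.0 and 46.0 CPM in aPU.1KO mice. Both had a single very low value, that of aPU.1KO mouse 2, and overlapped otherwise, with log2 fold changes of -0.67 (SE 0.60, edgeR adjusted p = 0.515) and -0.46 (SE 0.53, edgeR adjusted p = 0.619). Without that mouse these were -0.20 and -0.02, and without aPU.1KO mouse 3 they were -1.13 and -0.99. Col14a1, a FACIT chain common in fibroblasts, had the lowest log2 fold change of the chains tested, -1.61 (SE 0.44, edgeR adjusted p = 0.0954, DESeq2 adjusted p = 0.0052), at 8.91, 9.63 and 4.40 CPM in control and 3.96, 1.54 and 2.04 CPM in aPU.1KO mice. Its lowest control mouse and highest aPU.1KO mouse were close. Col20a1 was at 1.36, 1.49 and 0.754 CPM in control and 1.12, 0.949 and 2.04 CPM in aPU.1KO mice, with a log2 fold change of 0.18 that changed sign without control mouse 3 or aPU.1KO mouse 3.

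Col28a1, a chain known from peripheral nerve, was at 5.54, 5.47 and 4.84 CPM in control and 2.95, 3.07 and 2.70 CPM in aPU.1KO mice. The mice of each group were close to each other, with a log2 fold change of -0.86 (SE 0.16, edgeR adjusted p = 0.0742, DESeq2 adjusted p = 0.0012). The Schwann cell list, with Sox10 at or near 0, overlapped between the groups. Without its most abundant genes Mbp and S100b it was at 1.12, 2.40 and 2.04 CPM in aPU.1KO mice 1, 2 and 3. The part of Schwann cells in the Col28a1 values was not tested. Col23a1, a transmembrane collagen, was at 9.86, 10.2 and 11.2 CPM in control and 7.27, 7.82 and 9.09 CPM in aPU.1KO mice (log2 fold change -0.37, SE 0.14, edgeR adjusted p = 0.159). Col8a1, a short network chain of vessel walls, was at 7.85, 6.83 and 4.72 CPM in control and 2.59, 6.51 and 2.46 CPM in aPU.1KO mice and overlapped (log2 fold change -0.75, edgeR adjusted p = 0.303, and -1.36 without aPU.1KO mouse 2). Col26a1 was at 1.16, 0.744 and 1.03 CPM in control and 1.07, 0.949 and 0.947 CPM in aPU.1KO mice, a log2 fold change of -0.00. Col17a1 also overlapped, with a log2 fold change of -0.95. The other 10 were not tested, among them Col9a1 and Col9a2, which had 0 counts in all 6 libraries. A count of 0 allows a level of up to 0.0413 CPM in the deepest library and 0.152 CPM in the shallowest, for counting error only.

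The 3 aPU.1KO mice did not contribute alike. Mouse 2 had the lowest level of the 3 in 16 of the 30 chains tested, and mice 1 and 3 each in 7. The share of all genes lowest in each mouse was not counted, so these counts cannot be read as particular to collagen chains. The median log2 level over the control mean was -0.73 in mouse 1, -0.97 in mouse 2 and -0.40 in mouse 3. The fibrillar chains had medians of -0.73, -0.82 and -0.32 in mice 1, 2 and 3, type IV of -1.12, -0.66 and -0.88, type VI of -1.08, -1.11 and -0.53, and the others of -0.35, -0.76 and -0.05. The endothelial list was the highest of the aPU.1KO mice in mouse 2, at 839 CPM, within the control range. The summed fibroblast list was also the highest there, but without its most abundant genes Dpt and Dcn it was at 126, 142 and 160 CPM in aPU.1KO mice 1, 2 and 3. Of its 12 genes, 8 were lowest in mouse 1 and 4 in mouse 2, the latter being Dpp4 (7.47, 1.94 and 14.4 CPM in aPU.1KO mice), Fap (10.1, 3.80 and 12.9 CPM), Cd55 and Lum. The macrophage list was lowest there. The very low values of Col1a1, Col12a1 and Col16a1 in mouse 2 stood beside a Lep level of 1565 CPM, the lowest of the 6 mice, and beside Mrc2 and Pcolce2, given below, that were low in the same mouse. Of the 10 adipocyte genes, Lep was the only 1 lowest of the aPU.1KO mice in mouse 2. Cfd at 5595 CPM, Retn at 2852 CPM and the summed adipocyte list at 41439 CPM were the highest of the 6 mice there.

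**Figure D5:**
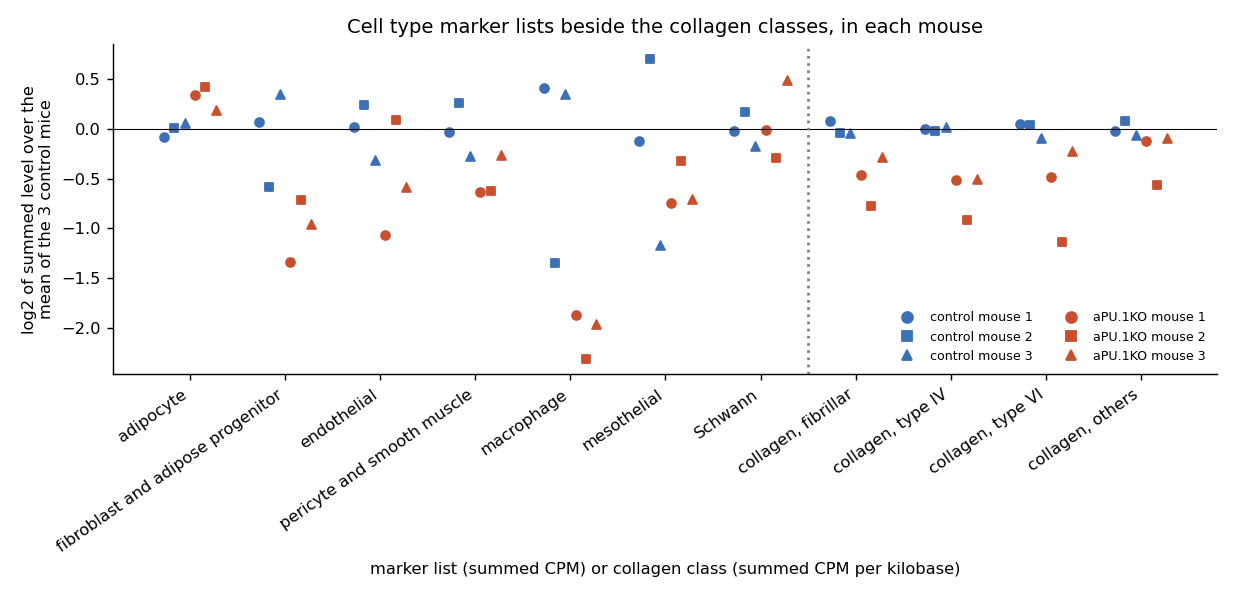
Log2 of the summed level over the mean of the 3 control mice (y axis) for 7 cell type marker lists and the 4 collagen classes (x axis), with a point for each mouse. In aPU.1KO mice the fibroblast and macrophage lists lie below the control mice, as the collagen classes do, while in aPU.1KO mouse 2 (red square), the lowest in each collagen class, the endothelial list is within the control range.

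The differences among chains were set against protein structure and level. Across the 30 tested chains, the correlation of the log2 fold change with the longest glycine-led run was 0.25 (Pearson) and 0.00 (Spearman), with protein length -0.35 and -0.37, and with the control level per kilobase 0.03 and 0.25. These are descriptions across genes of the same 6 libraries.

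Collagen chains are modified and folded in the endoplasmic reticulum before they are secreted. Of 24 listed genes of this step, 23 were tested, with a median log2 fold change of -0.26, 18 below 0 and 5 above. An unadjusted edgeR p under 0.05 with lower levels was found for 10 (13.7% of all genes), an adjusted one for 0 (0.18%), and 6 were called lower by DESeq2 (7.48%). Plod2, a lysyl hydroxylase, was at 12.4, 7.40 and 14.2 CPM in control and 6.15, 4.34 and 3.84 CPM in aPU.1KO mice (log2 fold change -1.25). Rcn3 (log2 fold change -0.94) and the prolyl 3-hydroxylase gene P3h3 (-0.79) followed. Serpinh1, which encodes the collagen chaperone HSP47, was at 617, 655 and 612 CPM in control and 596, 392 and 580 CPM in aPU.1KO mice (log2 fold change -0.26).

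Outside the cell, propeptides are removed and chains are crosslinked. All 13 tested of the 15 listed genes of this step had log2 fold changes below 0, with a median of -0.59, 10 at an unadjusted edgeR p under 0.05 (13.7% of all genes) and 5 called by DESeq2 (7.48%). Loxl2, a lysyl oxidase that crosslinks type IV collagen, was the only gene of the 4 pathway lists past the adjusted threshold of edgeR. It fell from 31.5, 22.2 and 30.5 CPM in control to 7.83, 8.50 and 7.72 CPM in aPU.1KO mice (log2 fold change -1.81, SE 0.16, edgeR adjusted p = 0.0174). The aPU.1KO mice were nearly equal and far below every control mouse. Pcolce, an enhancer of propeptide removal, was at 34.5, 14.8 and 42.8 CPM in control and 5.39, 9.63 and 10.8 CPM in aPU.1KO mice (-1.83), and Loxl3 had a log2 fold change of -1.10. Pcolce2, a relative of Pcolce, was at 40.8, 42.4 and 43.5 CPM in control and 38.5, 6.78 and 44.3 CPM in aPU.1KO mice, low in mouse 2 alone.

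Collagen is bound by integrins, discoidin domain receptors and other receptors. Of 10 listed genes 9 were tested, 7 below 0 and 2 above, with a median of -0.73, 4 lower at an unadjusted edgeR p under 0.05 (13.7% of all genes), 0 at an adjusted one and 4 called by DESeq2 (7.48%). Lair1, an inhibitory collagen receptor of leukocytes, was at 15.4, 2.76 and 14.8 CPM in control and 2.29, 1.58 and 2.27 CPM in aPU.1KO mice (log2 fold change -2.43), and control mouse 2 was low here as in the macrophage list. Itga11, the integrin chain of fibroblasts, had a log2 fold change of -1.57. Mrc2, an uptake receptor for collagen, was at 206, 149 and 268 CPM in control and 118, 8.32 and 151 CPM in aPU.1KO mice (-1.17, with a standard error of 0.84).

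Of 9 listed genes of collagen breakdown, of which Fap is also on the fibroblast list, 8 were tested, 7 below 0 and 1 above, with a median of -1.08, 4 lower at an unadjusted edgeR p under 0.05 (13.7% of all genes), 0 at an adjusted one and 4 called by DESeq2 (7.48%). Ctsk, the collagen-cleaving cathepsin K, was at 62.4, 18.7 and 59.2 CPM in control and 15.1, 8.32 and 16.1 CPM in aPU.1KO mice (log2 fold change -1.83). Mmp14, a membrane-bound collagenase, was at 35.1, 17.9 and 34.2 CPM in control and 8.69, 9.90 and 11.2 CPM in aPU.1KO mice (-1.55). Mmp2, which it activates, was at 36.5, 15.3 and 41.2 CPM in control and 8.18, 13.5 and 11.1 CPM in aPU.1KO mice (-1.51). In all 3 the groups did not overlap and control mouse 2 was the lowest of the control mice, as it was for the macrophage and fibroblast lists.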

How the data were processed

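RNA-seq libraries of the adipocyte fraction of 3 control and 3 aPU.1KO mice were analysed, 1 per mouse, each matched by the mouse tag in its label and numbered in label order. The authors quantified reads per transcript with Salmon (option validateMappings), summed them to genes and deposited the estimated counts as whole numbers, without normalization. The submitters' processing notes name GRCm38, Salmon and FastQC, and the Salmon version and annotation are not given in the sources used here. Reads were not assigned by strand as far as these sources say, so overlapping transcripts on opposite strands, such as the 22 bases shared by Col4a1 and Col4a2, cannot be told apart.

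Identifiers were matched to GENCODE M21 (GRCm38), which left 20 genes unmatched with 0.00188% of the counts. The main test was edgeR's quasi-likelihood test (version 4.0.16 under R 4.3.3; glmQLFit and glmQLFTest at their defaults) after filterByExpr and TMM scaling, adjusted by Benjamini-Hochberg over 13925 genes. Log2 fold changes are aPU.1KO over control, and standard errors came from the coefficient and the F statistic. Total counts ranged from 20550252 to 69283842, and no libraries of a group were duplicates (their counts gave a chi-square of at least 20.4 per degree of freedom). On simulated counts for these 13925 genes, edgeR called 197 of 200 genes changed 4-fold and 7 unchanged ones. The simulation gave every gene the same dispersion and held no outlying mouse. It thus does not show how often edgeR finds such a change in these data, where Spi1, at -2.75, had an edgeR adjusted p of 0.0788. Levels between genes were compared as CPM per kilobase of the transcript with the longest protein. Levels over the control mean in single mice used an added 0.1 CPM. Chain ratios were tested with exact permutation tests (scipy 1.17.1); Python 3.11.15 and matplotlib 3.10.9 made the figures.

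The members, the classes, the 4 pathway lists and the 7 cell type lists were chosen with earlier results of these data known, and 1 gene of the Schwann cell list is not reported here. Chains given with the value in every mouse are those with the highest level per kilobase in each class (5 fibrillar, 3 type IV, 4 type VI, 8 others) with the 3 highest and 3 lowest log2 fold changes among those with an average log2 CPM of at least 0. Of each pathway list the 3 with the largest change on that filter are named; Serpinh1 and Pcolce2 were added after their values were seen. The alternatives were RLE and upper quartile factors, at least 10 counts in every library or no filter, DESeq2 1.42.0, limma-voom 3.58.1, robust dispersion, legacy = FALSE, control mouse 1 thinned to 22770714 counts, and each mouse left out.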

Additional observations from a re-analysis of the deposited data

How the results depend on the processing

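The count of collagen chain genes called lower at an adjusted p under 0.05 was 0 with edgeR and 10 with DESeq2, and it ranged from 0 to 4 with each mouse left out (4 without control mouse 2, when 6.93% of all genes were called lower). At an unadjusted p under 0.05 it ranged from 10 to 18 over the 15 alternatives. The median log2 fold change of all chains tested, -0.72, ranged from -0.78 to -0.51 with each mouse left out, that of the fibrillar chains from -0.82 to -0.44 and that of the type IV chains from -1.23 to -0.69, and in all 3 the value that differed most was that without aPU.1KO mouse 2. The median of the type VI chains, -0.96, ranged from -1.23 without aPU.1KO mouse 3 to -0.74 without aPU.1KO mouse 1. Without aPU.1KO mouse 2 it was -0.97, beside -1.23 for type IV. The median of the other chains was -0.49, -0.82 with limma-voom and -0.27 without aPU.1KO mouse 2. The medians of all 4 classes stayed below 0 under every alternative run, and the 18 chains without overlap numbered 18 with RLE and with upper quartile factors. Near 0, Col26a1 changed sign and ranged from -0.16 to 0.14 with each mouse left out, at 0.14 without control mouse 1, and Col20a1 ranged from -0.22 to 0.38. Of 345 values of named chains under alternatives, 328 kept their direction and side of the threshold, 11 passed it and 6 changed sign; the cause was not tested. No paired analysis was possible because the labels give each mouse its own tag and the groups share no numbers: the study used littermate controls, but the labels do not say which of these mice share a litter. The 3 mice per group limit what a single chain can show, and chains at a few counts per library are measured imprecisely.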
